A study of Mus musculus with 12 samples.

Results

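Oxidative phosphorylation is carried out by 5 protein complexes of the inner mitochondrial membrane, and this account follows the RNAs of their subunits and of the factors that assemble them. Members were the protein-coding genes whose symbols begin with mt-Nd, mt-Co, mt-Atp, mt-Cytb, Nduf, Sdha to Sdhd, Uqcr, Cox and a digit, or Atp5, kept where at least 3 of the 12 libraries held over 10 counts. The names matched 124 genes of the 56350 in the count table, and 113 passed the count filter, of 16484 genes tested in all. Of the 113 members, 13 lie on the mitochondrial chromosome and 100 in the nucleus, where 80 encode subunits and 20 encode assembly factors. The 80 nuclear subunits comprised 36 of complex I, 4 of complex II, 8 of complex III, 15 of complex IV and 17 of complex V.

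RNAseq was done on MPC2 cells, a conditionally immortalized mouse mesenchymal line that is a single clone, with 3 libraries in each of 4 conditions. MSC vehicle and MSC FG-4592 libraries came from undifferentiated cells at 33 °C, and osteocyte vehicle and osteocyte FG-4592 libraries came from cells differentiated in osteogenic media at 37 °C over 3 weeks, so that temperature and media changed with differentiation and cannot be told apart from it. FG-4592 (roxadustat), an inhibitor of the prolyl hydroxylases that mark hypoxia-inducible factor (HIF) for breakdown, was given at 50 µM for 48 h, and vehicle cells received DMSO. The labels do not say that replicates were separate cultures, so p-values measure the spread between these libraries, which may be technical.

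Complexes I and II pass electrons from NADH and succinate to ubiquinone, complex III passes them on to cytochrome c, and complex IV, cytochrome c oxidase, hands them to oxygen. Complexes I, III and IV pump protons as they do so, and complex V, the ATP synthase, uses the proton gradient to make ATP. The mitochondrial chromosome encodes a core set of membrane subunits and the nucleus encodes the rest. In hypoxic cells HIF is known to shift pyruvate away from the mitochondria and to change the isoform of some complex IV subunits.

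Library totals ranged from 52829185 to 68108470 counts. Levels are given in CPM (counts scaled to library totals corrected by TMM). A gene with no count could still have stood at up to 0.0447 to 0.0545 CPM, the level of 3 counts, a limit that covers counting error only. The muscle marker list was near zero in every library, at 1.05 to 2.48 CPM summed over its 16 genes. The adipocyte list rose with differentiation, from 311 to 333 CPM in MSC vehicle to 3089 to 3664 CPM in osteocyte vehicle, with 7 of 7 tested genes higher at an FDR under 0.05, Adipoq at 1470 CPM and Ucp1, the defining brown fat gene, at 0 in that group. In MSC FG-4592 the list summed to 209 to 223 CPM, with 4 of the 7 lower than in vehicle (57.1%, against 20.4% of all genes) and 0 higher. The part of this fall in the MSC results below was not tested. The blood and vessel list was low in all libraries but differed by condition without overlap. It summed to 10.2 to 10.6 CPM in MSC vehicle, 4.25 to 5.72 CPM in MSC FG-4592, 19.2 to 21.2 CPM in osteocyte vehicle and 10.8 to 12.8 CPM in osteocyte FG-4592. Of 11 tested osteoblast and osteocyte markers, 6 rose and 2 fell with differentiation. Phex and Dmp1 rose (log2 fold changes 5.88 and 3.23), Ibsp (-0.74, FDR 0.00289) and Alpl (-0.33, FDR 0.014, or 0.0818 without the first osteocyte vehicle replicate) fell, and Sost, Mepe and Pdpn were at 0 in osteocyte vehicle. With FG-4592, 8 of the 11 fell and 1 rose in osteocytes, and 6 fell in MSCs, and their part in the results below was not tested.

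The first replicate of osteocyte vehicle stood apart from the other 2 libraries of its condition. Over the 50 nuclear members with the shorter exonic lengths (the median length was 1808 bases), the median deviation from each member's mean over 12 libraries was -0.47 on the log2 scale in that library, against 0.15 and 0.24 in its replicates. Over the 50 longer nuclear members the values were -0.08, 0.07 and 0.16. Because this library enters every comparison that uses osteocytes, many of the values below are also given without it. In bulk samples, fewer cells of a type and less RNA per cell cannot be told apart.

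**Figure D1:**
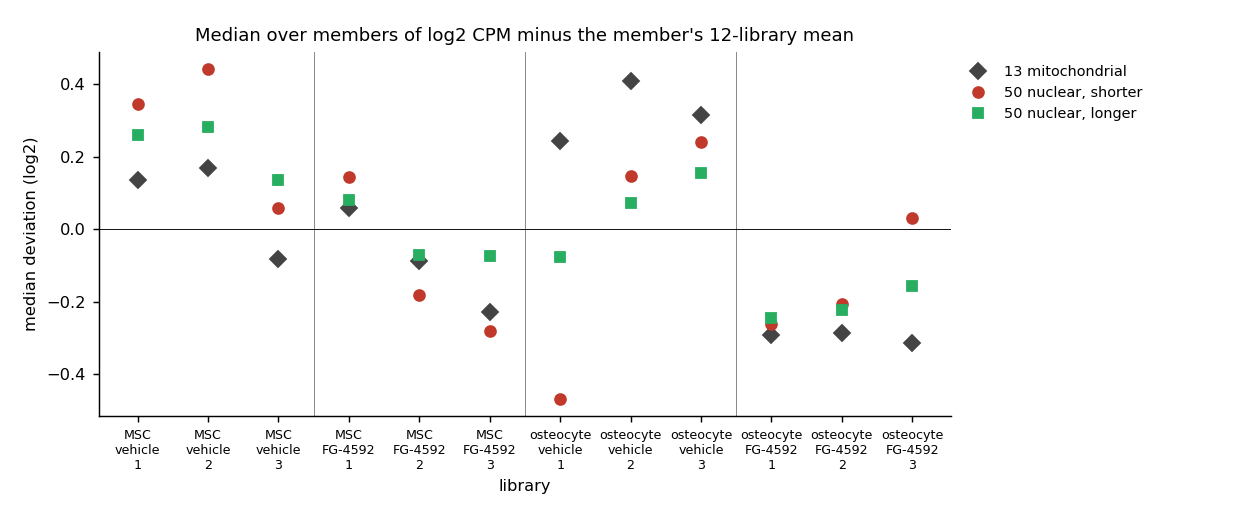
Each point is the median, over 13 mitochondrial or 50 nuclear members, of log2 CPM minus the member's mean over the 12 libraries (vertical axis, log2 units), for each library along the horizontal axis, with vertical lines between conditions. The shorter nuclear members of osteocyte vehicle replicate 1 sit at -0.47, below every other point, and the mitochondrial members are highest in the osteocyte vehicle libraries and lowest in the osteocyte FG-4592 libraries.

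The promoters of the 3 members that changed more than 2-fold with FG-4592 in both cell types are shown because the treatment stabilises HIF, which binds ACGTG or GCGTG. Each window is RefSeq sequence of GRCm38.p6, 250 bases before to 50 bases after a start position of the gene, read 5′ to 3′ on the gene's strand. For Cox7a1 and Ndufa4 that position lies inside the gene bounds given below. Capitals mark ACGTG or GCGTG on either strand.
Cox7a1 (chr7:30183921-30184220, plus strand): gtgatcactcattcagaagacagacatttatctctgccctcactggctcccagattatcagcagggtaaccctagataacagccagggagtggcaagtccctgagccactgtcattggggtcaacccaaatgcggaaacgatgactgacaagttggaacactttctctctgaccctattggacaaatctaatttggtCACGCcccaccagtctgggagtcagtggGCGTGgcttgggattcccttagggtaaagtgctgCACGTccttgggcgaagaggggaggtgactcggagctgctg
Ndufa4 (chr6:11907401-11907700, minus strand): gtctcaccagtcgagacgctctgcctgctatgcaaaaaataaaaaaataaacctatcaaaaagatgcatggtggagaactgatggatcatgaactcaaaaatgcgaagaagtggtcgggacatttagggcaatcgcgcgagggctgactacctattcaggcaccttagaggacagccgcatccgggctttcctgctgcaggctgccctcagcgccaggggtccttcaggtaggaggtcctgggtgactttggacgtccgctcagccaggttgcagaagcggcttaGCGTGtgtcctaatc
Ndufv3 (chr17:31519865-31520164, plus strand): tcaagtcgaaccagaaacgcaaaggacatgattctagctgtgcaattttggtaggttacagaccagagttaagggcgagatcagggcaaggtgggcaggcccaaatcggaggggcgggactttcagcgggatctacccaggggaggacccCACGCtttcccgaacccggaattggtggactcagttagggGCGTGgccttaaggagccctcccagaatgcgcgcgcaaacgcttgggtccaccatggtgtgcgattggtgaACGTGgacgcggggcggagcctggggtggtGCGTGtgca
A window was found for 83 of the 113 members (89 windows). ACGTG or GCGTG, on either strand, was in 58 of the 89 member windows (65.2%) and in 43.8% of all 32851 promoters of this length. ACGTG alone was in 22.5% of member windows and 19.6% of all, and GCGTG in 55.1% and 32.4%. The cores known for factors of respiratory genes were searched the same way, on both strands. The NRF1 core GCATGCGC was in 12 member windows (13.5%, against 2.71% of all), the ETS core CCGGAAG in 27 (30.3%, against 8.86%) and the YY1 core AAGATGG in 12 (13.5%, against 6.34%). These matches describe letters in a window, not bound sites, and base composition was not matched between members and all promoters.

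In MSCs, FG-4592 lowered many nuclear members by small amounts and left the abundant mitochondrial members near their vehicle levels. By edgeR's quasi-likelihood test and Benjamini-Hochberg adjustment across every gene in the fit (FDR under 0.05), 42 of the 113 members were lower (37.2%) and 4 were higher (3.54%). Among all genes tested, 20.4% were lower and 17.6% were higher. The median log2 fold change was -0.27 over the members and -0.05 over all genes. Only 3 members passed both cutoffs, an FDR under 0.05 and an absolute log2 fold change above 1. Cox7a1 and Ndufv3 were higher, where 4.12% of all genes passed in that direction, and Ndufa4 was lower, where 5.17% did. The count of lower members fell to 26 without MSC vehicle replicate 1, to 23 without MSC vehicle replicate 2 and to 25 without MSC FG-4592 replicate 3. The share of all genes in those fits is not given here, so whether an excess of lower members remained is not shown. The median of the nuclear subunits stayed between -0.44 and -0.27 when any 1 library was left out.

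In osteocytes, FG-4592 lowered members of both genomes, in unequal shares. In all 40 members were lower (35.4%) and 4 were higher (3.54%). Among all genes 22.0% were lower and 21.9% were higher. The lower members were 10 of 13 mitochondrial (76.9%, median -0.64) and 30 of 100 nuclear (30.0%, median -0.20), the latter 53 without osteocyte vehicle replicate 1 (median -0.35). The median was -0.23 over the members and 0.00 over all genes. The same 3 members passed both cutoffs in the same directions, against 6.25% of all genes higher and 4.26% lower. Without osteocyte vehicle replicate 1, 64 members were lower and 5 were higher, with a median of -0.37. In that fit Ndufv3 rose by 0.99 on the log2 scale (FDR 4.32e-06) and no longer passed the fold cutoff, while Ndufa4l2 did (3.04, FDR 0.0165).

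With differentiation the 2 genomes had medians of opposite sign in vehicle cells, -0.21 over nuclear and 0.28 over mitochondrial members (-0.09 and 0.39 without osteocyte vehicle replicate 1). The members higher in osteocytes numbered 10 (8.85%) and those lower 35 (31.0%), where 26.0% of all genes were higher and 24.9% lower. The median was -0.19 over the members (-0.05 without osteocyte vehicle replicate 1) and -0.01 over all genes. Past both cutoffs 1 member was higher (Cox8b) and 0 were lower, against 9.83% and 6.08% of all genes. DESeq2 also called 0 members lower past both cutoffs, and none had an unadjusted p under 0.05 with a fall of that size. The count of lower members fell to 21 without osteocyte vehicle replicate 1 (18.6%, under the 22.1% of all genes in that fit). It fell to 23 without MSC vehicle replicate 1 and to 22 without MSC vehicle replicate 2, fits for which the share of all genes is not given here. The adipocyte markers given above rose in the same comparison, and their part in these differences was not tested.

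Whether the 2 cell types responded differently to FG-4592 was tested as an interaction contrast, osteocytes minus MSCs. It was positive for 5 members (4.42%) and negative for 12 (10.6%), where 13.3% and 11.0% of all genes were called. Of the 12, 8 were mitochondrial. Past both cutoffs, 1 member was positive (Cox7a1, where 3.94% of all genes passed) and 0 were negative (1.07% of all genes). By DESeq2, and at an unadjusted p under 0.05 with the same fold, 0 members were negative as well. The number of positive members was 10 without MSC FG-4592 replicate 1 and 3 without osteocyte vehicle replicate 1, and Cox7a1 then had a difference of 2.10 with an FDR of 0.0875.

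**Figure D2:**
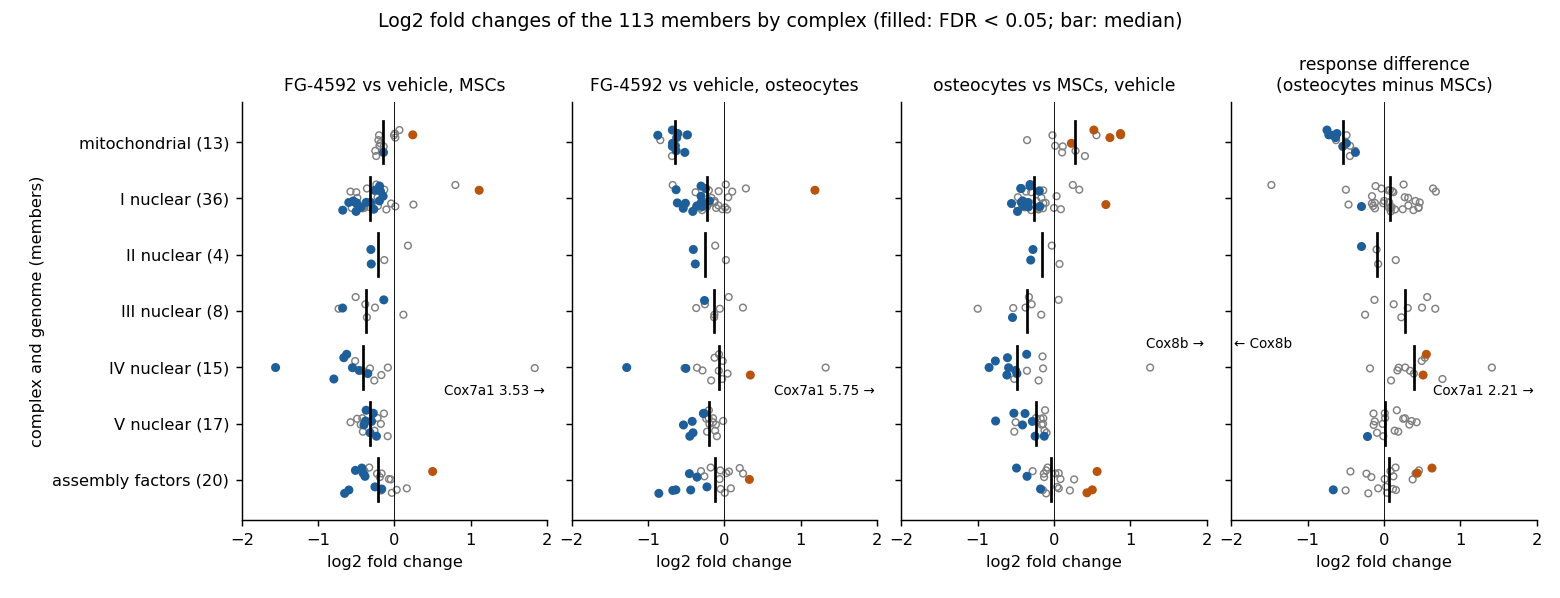
Each point is the log2 fold change (horizontal axis) of 1 of the 113 members in 1 of 4 comparisons, set out by complex and genome (vertical axis, members in brackets), filled where the FDR was under 0.05 and with a bar at the group median. Arrows name members beyond the axis, and the value of Cox8b is left out because its MSC vehicle libraries were all at 0. The mitochondrial members lie left of zero in osteocytes with FG-4592 (median -0.64), most lie right of it with differentiation (median 0.28), and their median in the response difference is -0.54.

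Mitochondrial members were lower with FG-4592 in osteocytes, and 5 were higher in osteocytes than in MSCs with vehicle. Of the 13, FG-4592 lowered 1 and raised 1 in MSCs (median -0.14). In osteocytes it lowered 10 and raised 0 (median -0.64). Differentiation raised 5 (38.5%, against 26.0% of all genes) and lowered 0 (median 0.28), and the interaction was negative for 8 (61.5%, against 11.0%) and positive for 0 (median -0.54). In each direction with a count of 0 by edgeR, DESeq2 called 0 and 0 had an unadjusted p under 0.05. Without osteocyte vehicle replicate 1 the counts were 11 lower in osteocytes (median -0.70), 6 higher with differentiation (median 0.39) and 10 negative interactions (median -0.61).

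The mitochondrial members were not measured equally well. Reads that map equally well to 2 places were not counted, and a run of pseudogenes on chromosome 1, between 24611535 and 24616197 (mm10), matches mt-Co2, mt-Atp6, mt-Co3, mt-Nd3 and mt-Nd4l over 99% to 99.9% of their length. Those 5 stood under 100 CPM and lack the reads that match both places. mt-Atp8 stood under 100 CPM too, and no such match was found for it. The search covered annotated transcripts only, so it could not find a copy outside them. The remaining 7 stood at 222 CPM or more in every library. Of these, mt-Nd4 matches the same run over 63.6% of its length and mt-Co1 over 31.3%, so that both also lack reads. For the other 5 no such match was found. Among the 7, 1 was higher and 1 lower in MSCs (median 0.01, or 0.03 without osteocyte vehicle replicate 1), 7 were lower in osteocytes (median -0.62), 5 were higher with differentiation (median 0.52) and 7 had a negative interaction (median -0.63). All 7 remained lower in osteocytes without osteocyte vehicle replicate 1 (median -0.58). Of the 5 with no match found (mt-Nd1, mt-Nd2, mt-Nd5, mt-Nd6 and mt-Cytb), 5 were lower in osteocytes (median -0.68), 4 were higher with differentiation and 5 had a negative interaction (median -0.63).

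The complex I core subunit mt-Nd5 (chrM:11742-13565, plus strand) stood at 4166, 3709 and 3955 CPM in MSC vehicle and at 3998, 4337 and 4042 CPM in MSC FG-4592. It reached 6556, 5287 and 5132 CPM in osteocyte vehicle and fell to 3514, 3729 and 3351 CPM in osteocyte FG-4592. The osteocyte vehicle libraries lay above all 9 others, and the osteocyte FG-4592 libraries overlapped those of MSC vehicle. The log2 fold change was 0.07 ± 0.076 (SE, FDR 0.547) in MSCs and -0.68 ± 0.076 (FDR 1.92e-06, edgeR's quasi-likelihood test with Benjamini-Hochberg adjustment, as for each FDR below) in osteocytes, and the 2 differed by -0.75 ± 0.107 (FDR 9.98e-05).

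mt-Nd4 (chrM:10167-11544, plus strand), another proton-pumping subunit of complex I, was the one member called in opposite directions in the 2 cell types. Its values were 1457, 1397 and 1430 CPM in MSC vehicle, 1667, 1734 and 1656 CPM in MSC FG-4592, 2891, 2443 and 2503 CPM in osteocyte vehicle and 1832, 1966 and 1812 CPM in osteocyte FG-4592. No 2 conditions overlapped. It rose by 0.24 ± 0.057 in MSCs (FDR 0.003), fell by 0.48 in osteocytes (FDR 3.2e-06) and rose by 0.87 with differentiation (FDR 2.45e-09).

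mt-Cytb (chrM:14145-15288, plus strand) encodes cytochrome b, the mitochondrial subunit of complex III. It stood at 3967, 3879 and 3409 CPM in MSC vehicle, 4009, 3829 and 3505 CPM in MSC FG-4592, 6520, 6052 and 6104 CPM in osteocyte vehicle and 3993, 3944 and 4191 CPM in osteocyte FG-4592. Osteocyte vehicle lay above the other 3 conditions, whose libraries spread over 3409 to 4191 CPM. The log2 fold change was 0.01 in MSCs (FDR 0.909), -0.62 ± 0.059 in osteocytes (FDR 3.01e-07) and 0.73 with differentiation (FDR 3.57e-08).

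mt-Co1 (chrM:5328-6872, plus strand), the catalytic subunit of complex IV, had the highest level per kilobase of the members in every condition. It stood at 12059, 11041 and 10766 CPM in MSC vehicle, 10136, 10713 and 9794 CPM in MSC FG-4592, 13144, 11660 and 11611 CPM in osteocyte vehicle and 8510, 8550 and 8383 CPM in osteocyte FG-4592. Osteocyte FG-4592 lay below all other libraries. The fall was 0.52 on the log2 scale in osteocytes (FDR 7.13e-07), and in MSCs the log2 fold change was -0.14 ± 0.053 (FDR 0.0417). Leaving out any 1 of 8 libraries lost that MSC call (all but MSC FG-4592 replicate 2, osteocyte vehicle replicate 1 and osteocyte FG-4592 replicates 2 and 3), with an FDR of 0.0505 to 0.382. With differentiation it was 0.10 (FDR 0.113), so mt-Co1 did not show the rise called for mt-Nd2, mt-Nd4, mt-Nd5, mt-Cytb and, at 0.23, mt-Nd1 (FDR 0.0154).

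mt-Nd6 (chrM:13552-14070) is the only one of the 13 on the minus strand. Its values were 529, 473 and 340 CPM in MSC vehicle, 456, 409 and 300 CPM in MSC FG-4592, 432, 485 and 404 CPM in osteocyte vehicle and 238, 222 and 262 CPM in osteocyte FG-4592. It fell by 0.87 in osteocytes (FDR 0.000145), and with differentiation its log2 fold change was -0.02 (FDR 0.919). The responses differed by -0.67 (FDR 0.0274), a call lost without MSC FG-4592 replicate 1 or 2 or osteocyte FG-4592 replicate 1 or 2 (FDR 0.0537 to 0.0781). It shares 14 bases with mt-Nd5, and reads over shared bases count for both genes, since strand was not used. Reads of either strand over mt-Nd6 count for it, and mt-Nd5 on the other strand averaged 266300 counts against 23200 for mt-Nd6. How much of the mt-Nd6 value came from the other strand was not tested.

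mt-Nd1 and mt-Nd2, the remaining complex I subunits above 100 CPM, fell by 0.68 (FDR 1.11e-06) and 0.61 (FDR 1.81e-07) in osteocytes. mt-Nd2 rose by 0.87 with differentiation, as mt-Nd4 did (FDR 1.97e-09). Among the members under 100 CPM, mt-Co2 (-0.64, FDR 0.000527), mt-Co3 (-0.63) and mt-Atp6 (-0.68, FDR 6.17e-05) were also lower in osteocytes. mt-Nd3, mt-Nd4l and mt-Atp8, all under 2 CPM in MSC vehicle, had fitted log2 fold changes of -0.69, -0.50 and -0.84 there and did not pass the test, though mt-Nd3 did without osteocyte vehicle replicate 1 (-0.81, FDR 0.0446).

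**Figure D3:**
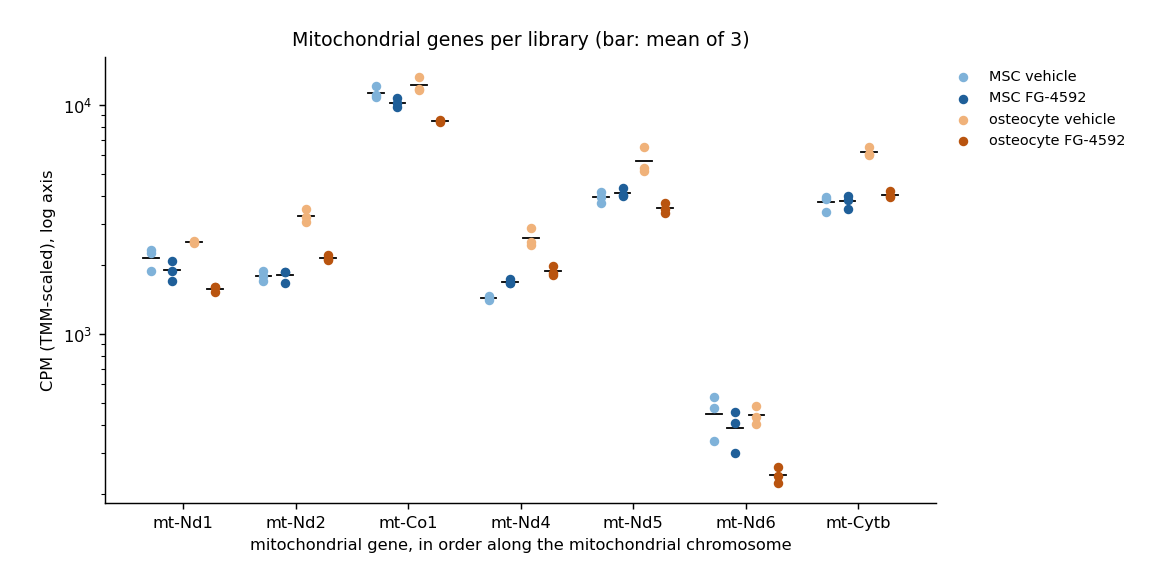
CPM of the 7 mitochondrial members above 100 CPM (logarithmic vertical axis) in each of the 12 libraries, coloured by condition and ordered along the chromosome, with a bar at each mean of 3. The osteocyte FG-4592 points lie below the osteocyte vehicle points for all 7 genes, with mt-Nd4 at 1832, 1966 and 1812 against 2891, 2443 and 2503 CPM.

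Summed over members, the 2 genomes gave different profiles across the conditions. The 13 mitochondrial members summed to 24836 ± 1467 CPM (SD, n = 3 here and below) in MSC vehicle and 23914 ± 1082 CPM in MSC FG-4592. In osteocyte vehicle the sum was 32901 ± 2319 CPM, and in osteocyte FG-4592 21907 ± 288 CPM. They took 2.49% to 2.75%, 2.25% to 2.45%, 3.19% to 3.63% and 2.07% to 2.11% of all counts in these conditions, so the osteocyte vehicle libraries were highest and the osteocyte FG-4592 libraries lowest without overlap. The 100 nuclear members summed to 6619 ± 467 CPM, 5394 ± 417 CPM, 5445 ± 772 CPM and 4728 ± 310 CPM in the same order. MSC vehicle lay above MSC FG-4592 in every library, while osteocyte vehicle spread from 4580 to 6063 CPM and overlapped both treated conditions.

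The ratio of the 2 sums was 3.76 ± 0.212 in MSC vehicle, 4.45 ± 0.291 in MSC FG-4592, 6.17 ± 1.39 in osteocyte vehicle and 4.65 ± 0.330 in osteocyte FG-4592. In osteocyte vehicle the library values were 7.77, 5.55 and 5.20, the highest being replicate 1. All 3 lay above the 9 other libraries, of which the highest was 4.90. FG-4592 was thus beside a higher ratio in MSCs and a lower one in osteocytes, with no overlap between treated and vehicle libraries in either cell type. The paper's library preparation enriched for mRNA, and whether RNAs of the 2 genomes were captured alike was not tested.

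The differences between complexes in the share of nuclear subunits lower with FG-4592 were not tested. In MSCs the share was 41.7% in complex I, 50.0% in complex II, 25.0% in complex III, 46.7% in complex IV and 41.2% in complex V, where 20.4% of all genes were lower. In osteocytes it was 33.3%, 50.0%, 12.5%, 13.3% and 35.3% in the same order, where 22.0% of all genes were lower. Complexes III and IV lay under that share, but above it without osteocyte vehicle replicate 1 (37.5% and 46.7%, against 22.9% of all genes). In MSCs, of 80 nuclear subunits 33 were lower and 2 higher (median -0.33), and in osteocytes 23 were lower and 3 higher (median -0.20). Without osteocyte vehicle replicate 1 the osteocyte counts were 46 lower and 4 higher (median -0.35). Differentiation lowered 32 (40.0%, against 24.9% of all genes) and raised 2 (median -0.30). Without that library it lowered 20 (25.0%, near the 22.1% of all genes) and raised 5 (median -0.11). The osteocyte counts differed with exonic length. There 7 of the 50 shorter (14%, under the share of all genes) and 23 of the 50 longer nuclear members were lower with FG-4592 (medians -0.13 and -0.25), and 19 and 34 without the library (medians -0.34 and -0.35). In MSCs 18 of the shorter (36%) and 23 of the longer (46%) were lower (medians -0.38 and -0.26). The median deviations of the shorter ones overlapped there, at 0.34, 0.44 and 0.06 in MSC vehicle and 0.14, -0.18 and -0.28 in MSC FG-4592. Those of the longer ones did not, at 0.26, 0.28 and 0.14 against 0.08, -0.07 and -0.08.

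Complex I, NADH dehydrogenase, had 15 of 36 nuclear subunits lower and 1 higher in MSCs (median -0.32), and 12 lower and 1 higher in osteocytes (median -0.22, or 23 lower and 1 higher with a median of -0.36 without the first osteocyte vehicle replicate). Its nuclear sum went from 1866 to 1601 CPM in MSCs and from 1555 to 1397 CPM in osteocytes. Of the core subunits, Ndufs8, which holds iron-sulfur clusters in the arm that accepts electrons, fell by 0.50 in MSCs and 0.61 in osteocytes. Ndufs4, an accessory subunit of the same arm whose loss is a known cause of complex I deficiency, fell by 0.50 and 0.51. Ndufb8, of the membrane arm, fell by 0.50 and 0.41. With differentiation 14 subunits were lower and 1, Ndufb2, was higher (0.68), shares of 38.9% and 2.78% against 24.9% and 26.0% of all genes. Without that replicate 8 were lower (22.2%, at the 22.1% of all genes in that fit) and 3 higher (median -0.07 against -0.26).

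Ndufv3 went the other way. It encodes an accessory subunit of the flavoprotein part of complex I, where NADH is oxidised, and lies on chr17:31520115-31531331 (mm10, plus strand). It stood at 52.4, 53.8 and 43.0 CPM in MSC vehicle, 124, 97.5 and 100 CPM in MSC FG-4592, 32.5, 48.5 and 49.8 CPM in osteocyte vehicle and 92.1, 90.4 and 115 CPM in osteocyte FG-4592. All 6 treated libraries lay above all 6 vehicle libraries. The rise was 1.11 ± 0.143 in MSCs (FDR 1.2e-05) and 1.19 ± 0.144 in osteocytes (FDR 4.6e-06), and the interaction was 0.08 ± 0.201 (FDR 0.827), or -0.14 without osteocyte vehicle replicate 1 (FDR 0.55). Per kilobase of exonic length it moved from rank 67 of the 100 nuclear members to rank 40 in MSCs and from rank 67 to rank 35 in osteocytes.

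Complex II, succinate dehydrogenase, which has no mitochondrially encoded subunit, split between its parts. The catalytic subunits Sdha and Sdhb fell in both cell types, Sdha by 0.30 in MSCs (FDR 2.77e-05) and 0.38 in osteocytes (FDR 1.95e-06), and Sdhb by 0.31 and 0.41. Sdha stood at 246, 245 and 235 CPM in MSC vehicle and 192, 199 and 196 CPM in MSC FG-4592, then at 250, 262 and 250 CPM in osteocyte vehicle and 195, 192 and 198 CPM in osteocyte FG-4592, with treated libraries below vehicle in each cell type. The membrane anchors Sdhc and Sdhd did not pass the test with FG-4592 in either. For Sdhd the estimates were 0.18 in MSCs (FDR 0.0546, or 0.0195 without osteocyte vehicle replicate 1) and -0.12 in osteocytes (FDR 0.182), and the responses differed by -0.30 (FDR 0.0368), a call lost without MSC FG-4592 replicate 1 or 3 or osteocyte FG-4592 replicate 1 (FDR 0.0702 to 0.0986).

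Complex III, which hands electrons to cytochrome c, had 2 of 8 nuclear subunits lower in MSCs (median -0.37) and 1 in osteocytes (median -0.13, or 3 with a median of -0.27 without the first osteocyte vehicle replicate). Uqcrc2, a core protein, fell by 0.26 in osteocytes. In MSCs it fell by 0.14 (FDR 0.0413), a call lost without any 1 of 9 libraries (all but MSC FG-4592 replicate 3 and osteocyte FG-4592 replicates 2 and 3), with an FDR of 0.0543 to 0.339. Uqcr10, a small accessory subunit, fell by 0.68 in MSCs (FDR 0.0455) with overlapping libraries, which stood at 55.3, 63.0 and 40.0 CPM with vehicle and 45.9, 27.5 and 25.6 CPM with FG-4592. That call was lost without any 1 of 7 libraries (MSC vehicle replicates 1 and 2, MSC FG-4592 replicates 2 and 3, osteocyte FG-4592 replicates 1 and 2 and osteocyte vehicle replicate 2), with an FDR of 0.0558 to 0.192, and by DESeq2 (FDR 0.0969). In osteocytes its log2 fold change was -0.37 (FDR 0.273), and -0.67 without osteocyte vehicle replicate 1 (FDR 0.0139).

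Complex IV had the lowest nuclear medians of the 5 complexes in MSCs and with differentiation, -0.42 and -0.49. In MSCs 7 of its 15 nuclear subunits were lower and 1 higher, with a sum of 1308 CPM in vehicle and 911 CPM in FG-4592. In osteocytes 2 were lower and 2 higher (median -0.07), with sums of 906 and 833 CPM. Differentiation lowered 8 (53.3%, against 24.9% of all genes) and raised 1. These values moved without osteocyte vehicle replicate 1, where 11 were lower in MSCs, 7 were lower and 3 higher in osteocytes (median -0.34), 5 were lower with differentiation (33.3%, against 22.1% of all genes, median -0.26) and 1 had a positive interaction (6.67%, under the 11.2% of all genes, median 0.21). With all libraries the interaction was positive for 3 (20%, against 13.3% of all genes) and negative for 0 (median 0.39), and 0 were negative by DESeq2 or at an unadjusted p under 0.05. The calls in MSCs included Cox7c (-0.79, FDR 0.0167), Cox6a1 (-0.66, FDR 0.00137) and Cox8a (-0.63, FDR 0.00174), small subunits around the catalytic core. The call for Cox7c was lost without MSC vehicle replicate 1 or 2 or MSC FG-4592 replicate 2 or 3 (FDR 0.0608 to 0.0814). Cox5b, a zinc-binding subunit, fell by 0.77 with differentiation (FDR 0.00449), from 84.6, 97.4 and 65.4 CPM to 31.2, 55.2 and 58.9 CPM, without overlap. The fall was 0.50 without osteocyte vehicle replicate 1, the lowest of these (FDR 0.0174).

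Complex V, the ATP synthase, had 7 of 17 nuclear subunits lower in MSCs (median -0.32) and 6 in osteocytes (median -0.21). Without osteocyte vehicle replicate 1, 10 were lower in MSCs (median -0.29) and 11 in osteocytes (median -0.43), so which cell type had the lower median turned with that library. The counts of higher subunits were 0 in both, by edgeR, by DESeq2 and at an unadjusted p under 0.05. Its nuclear sum went from 2194 to 1803 CPM in MSCs and from 1832 to 1467 CPM in osteocytes. Atp5b, the catalytic beta subunit, stood at 694, 670 and 695 CPM in MSC vehicle, 587, 593 and 568 CPM in MSC FG-4592, 593, 629 and 661 CPM in osteocyte vehicle and 459, 455 and 463 CPM in osteocyte FG-4592. It fell by 0.24 in MSCs (FDR 0.000558) and by 0.45 in osteocytes (FDR 5.42e-07), and the responses differed by -0.22 (FDR 0.0215, or 0.0528 without MSC FG-4592 replicate 2). The genes Atp5g1, Atp5g2 and Atp5g3 encode the same c-ring subunit. Of these Atp5g1 (-0.32 and -0.41) and Atp5g3 (-0.40 and -0.53) fell with FG-4592 in both cell types, and Atp5g2 fell in MSCs by 0.38 (FDR 0.00395). In osteocytes Atp5g2 had a log2 fold change of -0.02 (FDR 0.913), or -0.14 without osteocyte vehicle replicate 1 (FDR 0.208), and its responses were not called different (0.36, FDR 0.0575). Atp5g2 fell by 0.77 with differentiation (FDR 4.24e-06), from 80.4, 80.7 and 68.7 CPM to 38.5, 47.6 and 49.0 CPM.

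Ndufa4 showed the largest fall with FG-4592 in both cell types. It was long assigned to complex I and is now known as a subunit of complex IV, and it lies on chr6:11900292-11907497 (mm10, minus strand). It stood at 166, 176 and 133 CPM in MSC vehicle, 65.1, 51.5 and 44.7 CPM in MSC FG-4592, 57.5, 104 and 102 CPM in osteocyte vehicle and 34.4, 33.7 and 40.5 CPM in osteocyte FG-4592. In each cell type the treated libraries lay below the vehicle libraries, with osteocyte vehicle replicate 1 the nearest. It fell by 1.56 in MSCs (SE 0.183, FDR 4.35e-06), by 1.28 in osteocytes (SE 0.185, FDR 2.95e-05) and by 0.85 with differentiation (FDR 0.000866). The responses differed by 0.28 ± 0.256 (FDR 0.482). Without the first osteocyte vehicle replicate the osteocyte fall was 1.53 and the difference 0.000638. In that fit the lowest value of any complex IV nuclear subunit with differentiation was -0.59, so the differentiation fall of Ndufa4 was smaller there. Per kilobase it was rank 7 of the 100 nuclear members in MSC vehicle and rank 30 in MSC FG-4592, and rank 10 and rank 40 in the osteocyte conditions.

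Ndufa4l2, the paralog of Ndufa4 and a known HIF target in other cells, was hardly detected. It lies on chr10:127514967-127517154 (mm10, plus strand) and had 4, 7 and 4 counts in MSC vehicle, 8, 7 and 0 in MSC FG-4592, 32, 4 and 3 in osteocyte vehicle and 50, 18 and 29 in osteocyte FG-4592. The log2 fold change was -0.09 in MSCs (FDR 0.961) and 1.33 ± 0.834 in osteocytes (FDR 0.221), where osteocyte vehicle replicate 1 lay among the treated libraries. Without that library the osteocyte value was 3.04 (FDR 0.0165). Per kilobase Ndufa4l2 made up at most 2.75% of the sum of the pair in any library. It shares 32 bases with Shmt2 on the opposite strand.

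Cox7a1, the heart and muscle isoform of subunit VIIa, had the largest rise with FG-4592 in both cell types. It lies on chr7:30184144-30186078 (mm10, plus strand) and had 5, 7 and 1 counts in MSC vehicle, 73, 43 and 48 in MSC FG-4592, 4, 6 and 2 in osteocyte vehicle and 211, 198 and 267 in osteocyte FG-4592. These were means of 0.0745 ± 0.0525, 0.872 ± 0.311, 0.0669 ± 0.0381 and 3.63 ± 0.672 CPM, and the treated libraries lay above all vehicle libraries. The log2 fold change was 3.53 ± 0.489 in MSCs (FDR 2.49e-05) and 5.75 ± 0.482 in osteocytes (FDR 6.88e-08), values that rest on few counts in vehicle. The responses differed by 2.21 ± 0.778 (FDR 0.0497), a call lost without any 1 of 9 libraries (all but MSC FG-4592 replicate 1, MSC vehicle replicate 3 and osteocyte vehicle replicate 2), with an FDR of 0.062 to 0.238. The muscle markers summed to no more than 2.48 CPM in any library. The adipocyte sum was 2406 to 2818 CPM in osteocyte FG-4592 and 3089 to 3664 CPM in osteocyte vehicle, a gap carried by Dio2, which fell by 3.05. Without Dio2 the sums overlapped, at 2288 to 2699 CPM and 2054 to 2681 CPM, and of the 7 tested adipocyte markers Fabp4 (1.19, FDR 6.83e-07) and Cidec (0.62, FDR 0.000915) rose and Dio2 alone fell (3 fell without osteocyte vehicle replicate 1). Its housekeeping counterpart Cox7a2 stayed far above it. Per kilobase Cox7a1 made up 0.0624% to 0.391% of the 2 in MSC vehicle, 3.09% to 4.93% in MSC FG-4592, 0.119% to 0.497% in osteocyte vehicle and 14.4% to 15.5% in osteocyte FG-4592. Cox7a2 itself, at 48.1, 52.5 and 44.4 CPM in MSC vehicle, was not called in any comparison (FDR 0.055 in MSCs, at a log2 fold change of -0.42), but was lower in MSCs without osteocyte vehicle replicate 1 (-0.39, FDR 0.0154).

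Cox7a2l, which helps complex III and complex IV join into supercomplexes, differed in response between the cell types. It stood at 189, 186 and 169 CPM in MSC vehicle, 164, 160 and 158 CPM in MSC FG-4592, 104, 127 and 124 CPM in osteocyte vehicle and 146, 146 and 157 CPM in osteocyte FG-4592. Treated libraries lay below vehicle in MSCs and above vehicle in osteocytes. The log2 fold change was -0.17 ± 0.067 in MSCs (FDR 0.0553, or 0.026 without the first osteocyte vehicle replicate), 0.34 ± 0.068 in osteocytes (FDR 0.000602) and -0.62 with differentiation (FDR 1.2e-06). The responses differed by 0.51 ± 0.095 (FDR 0.000911), and by 0.38 without the first osteocyte vehicle replicate (FDR 0.00116).

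Cox4i1, the common isoform of subunit IV, stood at 229, 237 and 216 CPM in MSC vehicle, 194, 184 and 158 CPM in MSC FG-4592, 133, 165 and 189 CPM in osteocyte vehicle and 159, 158 and 185 CPM in osteocyte FG-4592. It fell by 0.35 in MSCs (FDR 0.0137), a call lost without MSC vehicle replicate 2 (FDR 0.0715) or without MSC FG-4592 replicate 3 (FDR 0.0768). In osteocytes the libraries overlapped and the log2 fold change was 0.04 (FDR 0.782). It shares 154 bases with Emc8 on the opposite strand. Its paralog Cox4i2, known as the isoform of hypoxic cells and of the lung, did not pass the count filter, with 5, 1 and 19 counts in MSC vehicle, 1, 9 and 0 in MSC FG-4592, 0, 0 and 0 in osteocyte vehicle and 6, 4 and 4 in osteocyte FG-4592. At this depth no replacement of Cox4i1 by Cox4i2 was detectable.

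Of subunit VIII, Cox8a, the common form, fell in MSCs from 116, 114 and 96.1 CPM to 77.9, 71.9 and 61.6 CPM. In osteocytes it stood at 60.5, 97.0 and 96.9 CPM with vehicle and 78.7, 78.2 and 85.2 CPM with FG-4592 (-0.07, FDR 0.727, or -0.28 and FDR 0.014 without osteocyte vehicle replicate 1). The responses differed by 0.56 ± 0.194 (FDR 0.0484), a call lost without any 1 of 8 libraries (all but MSC vehicle replicate 3, MSC FG-4592 replicate 1 and osteocyte vehicle replicates 2 and 3), with an FDR of 0.0619 to 0.133. Without osteocyte vehicle replicate 1 the difference was 0.31. Cox8b, the heart and muscle form, had 0 counts in all MSC vehicle libraries and 4, 29 and 68 counts in osteocyte vehicle, at least 11.1-fold higher against a floor of 3 counts per library (FDR 0.000543), or at least 5.75-fold without osteocyte vehicle replicate 3. With FG-4592 its counts in osteocytes were 29, 12 and 32 (log2 fold change -0.52, FDR 0.641). With differentiation the muscle marker sum was 1.13 to 2.29 CPM before and 1.55 to 1.90 CPM after, while the adipocyte sum rose from 311 to 333 CPM to 3089 to 3664 CPM. The part of either in the rise of Cox8b was not tested. The muscle isoform Cox6a2 had at most 2 counts and the testis isoform Cox6b2 at most 6 in any library, both under the filter. Of their common counterparts, Cox6a1 fell in MSCs as given above and Cox6b1 was not called in any comparison, but was lower in osteocytes without osteocyte vehicle replicate 1 (-0.42, FDR 0.0442).

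**Figure D4:**
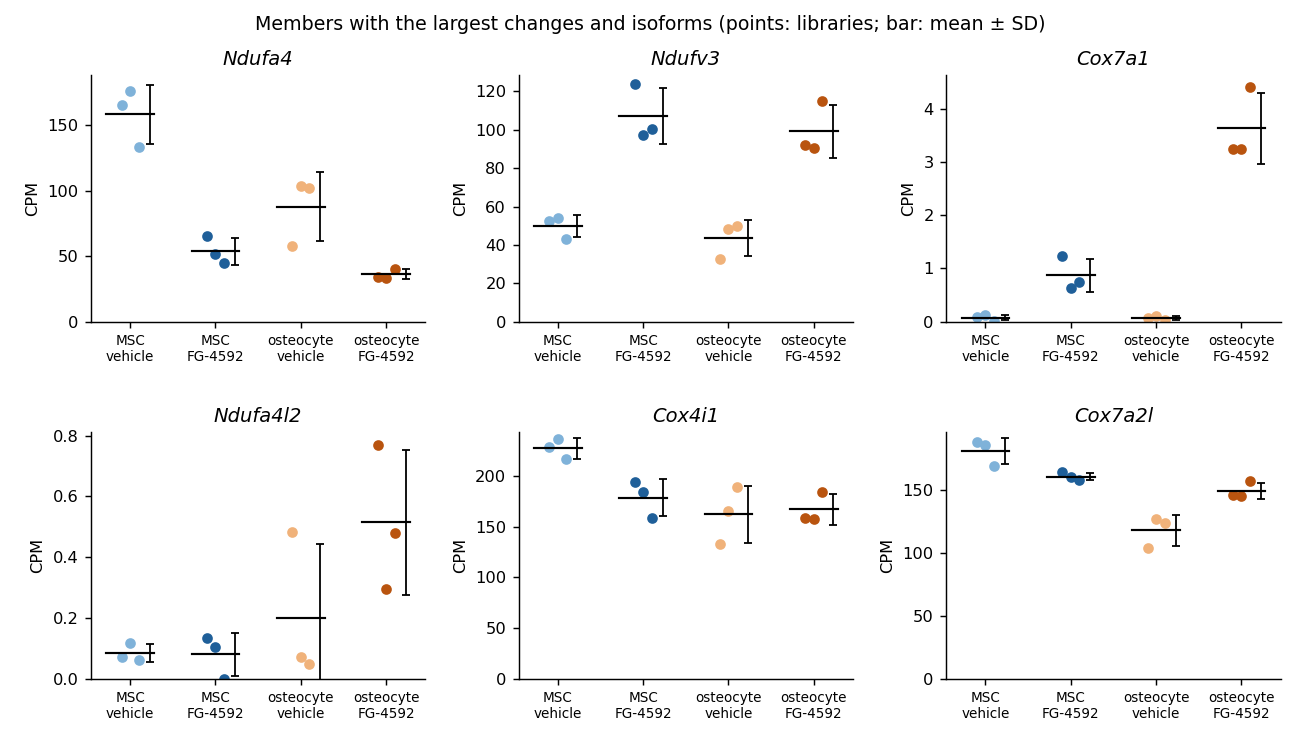
CPM (vertical axes, each from 0) of Ndufa4, Ndufv3, Cox7a1, Ndufa4l2, Cox4i1 and Cox7a2l in the 12 libraries by condition, with points for libraries, a long bar for the mean and an error bar for the SD of 3. Ndufa4 falls and Ndufv3 and Cox7a1 rise with FG-4592 in both cell types, while Ndufa4l2 stays under 1 CPM throughout and its first osteocyte vehicle library stands among the treated ones.

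The remaining matches to the name rule were under the filter too. They were Cox8c, Cox7b2, a second entry for Atp5o, 2 entries for Cox20, and second entries for Uqcrc1, Ndufs3 and Atp5a1 on scaffolds outside the chromosomes. The chromosomal entries of those 3 passed the filter at under 1 CPM in MSC vehicle and lack the reads that match both copies. In all, 50 of the 113 members share exonic bases with another gene and 40 hold a stretch of at least 100 bases that matches elsewhere at 99% identity or more, so that their counts can hold reads of a neighbour or lack reads of their own.

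Assembly factors had medians nearer to zero than the nuclear subunits. With FG-4592, 8 of 20 were lower and 1 higher in MSCs (median -0.21), and 7 were lower and 1 higher in osteocytes (median -0.12). The lower shares were 40.0% in MSCs and 35.0% in osteocytes, against 20.4% and 22.0% of all genes. Differentiation raised 3 and lowered 3, 15.0% each, under the 26.0% and 24.9% of all genes. Without osteocyte vehicle replicate 1, 2 were higher in MSCs, the osteocyte median was -0.19 and differentiation lowered 1. Cox18, which inserts part of the subunit encoded by mt-Co2 into the membrane, fell in both, from 7.79, 7.28 and 7.67 CPM to 3.98, 5.42 and 5.04 CPM in MSCs (-0.65, FDR 0.00106), and from 6.17, 7.71 and 7.29 CPM to 3.73, 4.22 and 3.73 CPM in osteocytes (-0.86, FDR 8.12e-05). Neither pair of conditions overlapped. Cox11, which delivers copper to complex IV, rose in MSCs by 0.50 (FDR 0.00936), from 4.54, 5.75 and 5.15 CPM to 6.96, 7.84 and 7.04 CPM, and had a log2 fold change of 0.06 in osteocytes (FDR 0.762).

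Ndufaf3 and Ndufaf4, which act together in building complex I, had interactions of opposite sign. Ndufaf3 fell by 0.43 in MSCs (FDR 0.00637, or 0.0508 without MSC vehicle replicate 1) and had a log2 fold change of 0.20 in osteocytes (FDR 0.169), a difference of 0.63 ± 0.160 (FDR 0.00854). Ndufaf4 had a log2 fold change of 0.03 in MSCs (FDR 0.866) and fell by 0.63 in osteocytes (FDR 0.000121), a difference of -0.66 ± 0.150 (FDR 0.00392). Ndufaf4 stood at 14.6, 14.4 and 15.7 CPM in osteocyte vehicle and at 9.54, 10.1 and 9.13 CPM in osteocyte FG-4592, and between 9.33 and 12.6 CPM in all MSC libraries.

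The MSC and osteocyte responses to FG-4592 rest on separate libraries. Called in both were 20 members that fell, 2 that rose (Cox7a1 and Ndufv3) and 1 with opposite signs (mt-Nd4). These were 17.7%, 1.77% and 0.885% of the members, against 11.2%, 11.3% and 2.78% of all genes. The 20 included 7 nuclear subunits of complex I, 2 of complex II, 1 of complex III, Ndufa4 and mt-Co1 of complex IV, 5 nuclear subunits of complex V and 3 assembly factors. Across the 105 members with a mean of at least 100 counts, Pearson's r between the log2 fold changes of the 2 responses was 0.334 and Spearman's rho -0.0139. Over the 94 nuclear ones these were 0.511 and 0.171. Members share libraries within each response and are not independent, so these values describe the plot and carry no test.

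**Figure D5:**
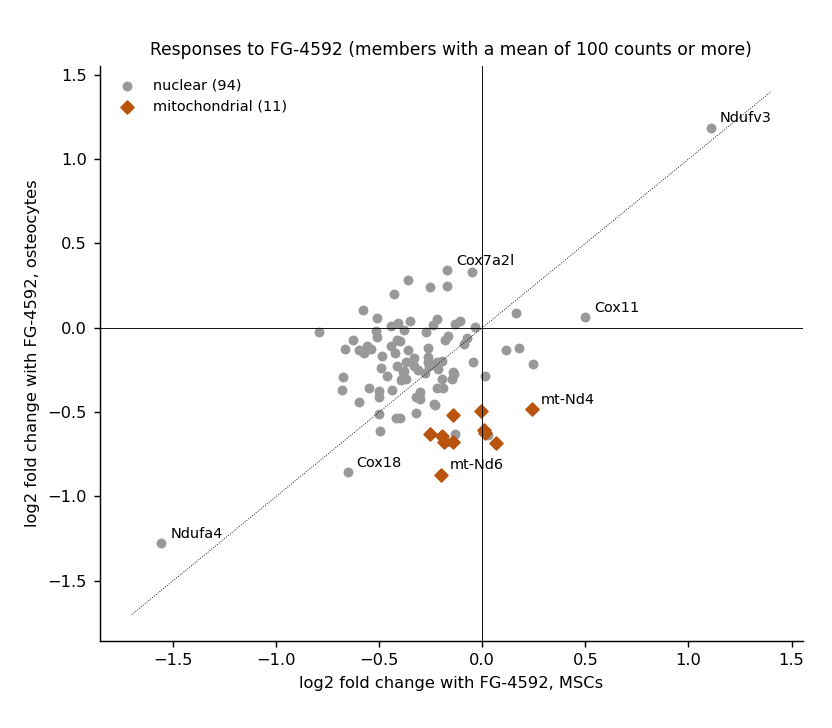
Log2 fold change with FG-4592 in osteocytes (vertical axis) against that in MSCs (horizontal axis) for 94 nuclear and 11 mitochondrial members with a mean of at least 100 counts, with a dotted line of equal change. Ndufa4 (-1.56 and -1.28) and Ndufv3 (1.11 and 1.19) lie near the line away from the rest, and the mitochondrial members form a group between -0.48 and -0.87 in osteocytes.

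Genes that serve the complexes without belonging to them gave the following counts from lists outside the name rule. They read against the shares of all genes given above, 17.6% higher and 20.4% lower in MSCs, 21.9% and 22.0% in osteocytes, 26.0% and 24.9% with differentiation and 13.3% and 11.0% in the interaction. Of 13 electron carriers, inner membrane carriers and outer membrane pores (Vdac1, Vdac2 and Vdac3), FG-4592 raised 1, Vdac1 (7.69%), and lowered 4 (30.8%) in MSCs, and raised Vdac1 and lowered 8 (61.5%) in osteocytes. Cycs, which is cytochrome c, the carrier between complexes III and IV, fell by 0.27 in MSCs (FDR 0.00163) and by 0.84 in osteocytes (FDR 8.59e-09), and the responses differed by -0.57. Slc25a5, an ADP/ATP carrier, fell by 0.32 and 1.10. Vdac1 rose by 1.60 and 1.14. Differentiation raised 4 of the 13 and lowered 3, or 6 and 1 without osteocyte vehicle replicate 1. Ucp2, of the uncoupling protein family, rose with differentiation from 4, 1 and 0 counts to 233, 174 and 159 (FDR 1.27e-07), and no fold is given because its MSC vehicle mean lay under the level of 3 counts. The interaction was negative for 7 (53.8%).

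Of 32 assembly factors outside the name rule, 4 were higher (12.5%) and 8 lower (25.0%) in MSCs, 3 higher (9.38%) and 8 lower (25.0%) in osteocytes, 8 higher and 4 lower with differentiation, and 3 positive and 3 negative in the interaction. With FG-4592 the lower shares lay near those of all genes and the higher shares under them, while with differentiation the higher share (25.0%) lay near that of all genes and the lower share (12.5%) under it. In the fit without osteocyte vehicle replicate 1, 1 of the 32 was higher in osteocytes, under the 19.9% of all genes. In that fit 11 were lower there, above the 22.9% of all genes and no longer near it. In the interaction 1 was positive and 5 were negative, where 11.2% and 13.9% of all genes were called. Higd1a, a small protein that binds complex IV in hypoxia, rose by 3.58 in MSCs (FDR 5.18e-11) and 2.73 in osteocytes (FDR 6.24e-10). Of 18 genes that copy, transcribe and process mitochondrial DNA and RNA, 4 were higher in MSCs (22.2%), 1 was higher and 4 lower in osteocytes (5.56% and 22.2%), 7 were higher with differentiation and 3 had a negative interaction. Fastkd2, which binds mitochondrial ribosomal RNA, rose by 0.52 in MSCs (FDR 8.56e-05), Tfb1m, an rRNA methyltransferase, by 0.51 in osteocytes (FDR 0.00687), and Pnpt1, an RNA-degrading enzyme, fell by 0.46 in osteocytes (FDR 0.000392). Tfam and Polrmt, the main transcription factor and the polymerase of mitochondrial DNA, were called in none of the 4 comparisons. Lrpprc, which stabilises mitochondrial mRNAs, rose by 0.28 in MSCs (FDR 0.000444), fell by 0.29 in osteocytes (FDR 0.000252) and rose by 0.20 with differentiation (FDR 0.00374).

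Of 15 nuclear regulators of respiratory genes, 4 were higher and 3 lower in MSCs (26.7% and 20%, or 5 and 1 genes without osteocyte vehicle replicate 1), 3 higher and 1 lower in osteocytes (20% and 6.67%), and 5 higher and 1 lower with differentiation. Myc rose by 0.75 and 0.87, and Yy1 by 0.54 and 0.48. Pprc1, a coactivator of respiratory genes, fell by 0.30 in MSCs and 0.52 in osteocytes (FDR 0.00207 and 8.58e-06). Ppard rose by 1.14 in osteocytes (FDR 1.45e-10), and Nrf1, Gabpa and Esrra were called in none of the 4 comparisons, though Gabpa was higher in MSCs without osteocyte vehicle replicate 1 (0.18, FDR 0.00445). Of 11 HIF-linked genes, most tied to mitochondria or fuel use but including the angiogenic factor Vegfa, 9 were higher and 1 lower in MSCs, 10 higher in osteocytes and, with differentiation, 5 higher and 1 lower. Their interaction was negative for 6 (54.5%, against 11.0% of all genes) and positive for 2 (18.2%, against 13.3%). Pdk1, the kinase that shuts pyruvate dehydrogenase, rose by 4.87 and 4.01, Ldha by 3.31 and 2.75, Bnip3, a mitophagy receptor, by 4.31 and 3.73, and Lonp1, a mitochondrial protease, by 1.38 and 1.07. Iscu, the iron-sulfur cluster scaffold, fell by 0.39 in MSCs (FDR 0.0104), a call lost without MSC vehicle replicate 2 or 3 (FDR 0.103 and 0.0838). The osteocyte value of Iscu was -0.26 on the log2 scale (FDR 0.0612), or -0.35 without osteocyte vehicle replicate 1 (FDR 0.0245), and the interaction was 0.12 (FDR 0.622).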

How the data were processed

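RNAseq libraries of MPC2 cells were assigned to conditions from their labels, in which no batch is given. The authors mapped paired reads to mm10 with STAR 2.7.2a, kept uniquely mapped reads, and counted them over Gencode genes with featureCounts (Subread 1.6.2), without strand and for every gene overlapped, and edgeR 3.24.3 stands in the submitters' processing notes. The authors deposited whole-number counts per gene and library, without normalization, for 56350 genes, and all 12 columns were used. Reads with more than 1 best place were not counted, which lowers genes with near-identical copies.

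From the deposited counts, 16484 genes (over 10 counts in 3 or more libraries) entered edgeR 4.0.16 (R 4.3.3) with TMM factors, all 12 libraries in 1 fit and the quasi-likelihood test, two-sided, and Benjamini-Hochberg adjustment across every gene in the fit. Members were called at an FDR under 0.05, and past both cutoffs when the absolute log2 fold change was also above 1. The fit was tested on simulated data. CPM used TMM-scaled totals, and levels of single genes were compared with each other only per kilobase of exonic length. Copies were searched among annotated transcripts with blastn 2.17.0 at 99% identity over at least 100 bases. Alternatives were other scaling factors, filters, tests (DESeq2 1.42.0), a replicate block, removal of length and GC trends, and leaving out each library. The columns hold no other values.

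The members and lists were chosen with earlier results of these data known. Named were members past both cutoffs, the mitochondrial members, the isoform families and, for each comparison, the 3 largest rises and the 3 largest falls at an FDR under 0.05 whose highest condition averaged 100 counts or more. From the lists, genes past both cutoffs and the largest rise and fall could be named. The further examples within complexes I, II, III and V (Ndufs8, Ndufs4, Ndufb8, Ndufb2, Sdha to Sdhd, Uqcrc2, Atp5b), Ndufaf4, and the list genes Cycs, Tfam, Polrmt, Lrpprc, Yy1, Pprc1, Nrf1, Gabpa, Esrra, Ldha, Bnip3 and Lonp1, and the markers Ibsp, Alpl, Mepe, Pdpn, Dio2, Fabp4 and Cidec were chosen after their values were seen. The cell type markers were the muscle, adipocyte, blood and vessel, and osteoblast and osteocyte lists.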

Additional observations from a re-analysis of the deposited data

Results flagged for a closer look

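The responses to FG-4592 differed between osteocytes and MSCs, by edgeR's interaction contrast at an FDR under 0.05, for 17 members. The difference (osteocytes minus MSCs, log2) was negative for the mitochondrial members mt-Nd5 (-0.75), mt-Nd4 (-0.72), mt-Nd6 (-0.67), mt-Cytb (-0.63), mt-Nd2 (-0.61), mt-Atp6 (-0.54, FDR 0.0143), mt-Nd1 (-0.49) and mt-Co1 (-0.37). It was also negative for the nuclear members Ndufaf4 (-0.66), Ndufa9 (-0.30, FDR 0.0316, or 0.0504 to 0.0805 without MSC FG-4592 replicate 1 or osteocyte FG-4592 replicate 1 or 2), Sdhd (-0.30) and Atp5b (-0.22). It was positive for Cox7a1 (2.21), Ndufaf3 (0.63), Cox8a (0.56), Cox7a2l (0.51) and Cox14 (0.44, FDR 0.0111). Among all genes, 13.3% had a positive and 11.0% a negative difference. The osteocyte response rests on 3 vehicle libraries of which replicate 1 stood apart, and without it mt-Nd1, mt-Nd2, mt-Nd4, mt-Nd5, mt-Nd6, mt-Co1, mt-Cytb and mt-Atp6 kept a negative call. Positive calls then numbered 3, with Cox7a1 (FDR 0.0875) and Cox8a (FDR 0.0619) lost, and negative nuclear calls numbered 8 in place of 4.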

How the results depend on the processing

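Over 23 alternatives, of which 12 leave out 1 library, 316 pairs of a gene and a comparison were followed. Of the 162 called pairs, 130 kept their call in every alternative and 0 changed sign. Among values called in neither fit there were 195 changes of sign. The count of lower members in MSCs was 42, 64 with library size alone and 72 with no filter, and the median of the mitochondrial members there was 0.00604 without the 6 members under 100 CPM (an alternative chosen after seeing the data). Library size alone moved the median of all genes to -0.13 in MSCs and -0.10 in osteocytes, and the mitochondrial median in osteocytes to -0.74. With differentiation, 57 members were lower with no filter, 2 were higher past both cutoffs with the length trend removed, and the mitochondrial median was 0.40 with GC and length trends removed, 0.51 with the length trend removed and 0.52 without those 6. The positive response differences numbered 5 as reported, 3 with RLE factors, 3 with the length trend removed, 10 by the likelihood ratio test and 25 with no filter, and past both cutoffs 0 with RLE factors, the length trend removed, or GC and length trends removed. The cause was not tested.

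Leaving out 1 library at a time gave 4 to 6 higher and 23 to 53 lower members in MSCs, 1 to 2 past both cutoffs in each direction, and medians of -0.25 to -0.039 (mitochondrial) and -0.44 to -0.27 (nuclear subunits). In osteocytes it gave 3 to 5 higher and 34 to 64 lower, and medians of -0.70 to -0.61 and -0.35 to -0.10. With differentiation it gave 9 to 14 higher and 21 to 38 lower, and medians of 0.25 to 0.41 and -0.38 to -0.11. For the response difference it gave 3 to 10 positive, 0 to 2 of them past both cutoffs, 9 to 18 negative, and medians of -0.68 to -0.42 and -0.08 to 0.26, a median whose sign turned.

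Deviations of same-numbered replicates had correlations between -0.0477 and 0.0543. These give no sign of pairing but cannot show that such libraries shared no culture or handling. With a replicate block, 3 response differences were positive and 0 of them were past both cutoffs, and no other count moved by over 1.5 times. Depth limits Cox7a1 in vehicle, Ndufa4l2 and Cox4i2, which had few counts.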
